A study of Mus musculus with 6 samples.

Results

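Of the genes that make, carry, sense and clear GABA (gamma-aminobutyric acid), 26 were followed in mouse tissue of the medial ganglionic eminence (MGE) taken at embryonic day 14. The 26 genes were chosen by name, for their roles in GABA synthesis, transport and breakdown, in the GABA receptors and in chloride balance, out of 49315 genes counted. All 26 were found in the counts. The MGE is the part of the ventral forebrain in which many cortical interneurons are born. Gene expression was measured by RNA-seq in 6 libraries, 3 labelled WT and 3 labelled KO. Both groups shared the Ai14 reporter and Nkx2.1-Cre, a recombinase expressed from the Nkx2.1 gene in MGE progenitors and their descendants. The WT embryos were Prdm16+/+ and the KO embryos were Prdm16fl/fl, so that Prdm16, which encodes a transcriptional regulator active in neural stem cells, should be lost in the Cre lineage and kept in other cells of the tissue. Each library was 1 pool of total RNA from 3 embryos (6 eminences), and p-values measure the spread between such pools.

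GABA is made from glutamate by glutamate decarboxylase, packed into vesicles, released, and taken up again by transporters of the plasma membrane. It opens GABA-A receptors, chloride channels built of 5 subunits, and activates GABA-B receptors, which act through G proteins. In the embryonic forebrain GABA is released before synapses form, and chloride importers and exporters set whether it depolarizes or hyperpolarizes a cell. The interneuron precursors of the MGE make GABA early and are also sensitive to it while they migrate.

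Total counts ran from 33188277 to 55552298 reads per library. Values are CPM, read counts scaled to library size and composition, given as mean ± SD over 3 libraries per group, and adjusted p-values are from edgeR. Prdm16 itself was at 49.4 ± 5.55 CPM in the WT libraries and at 50.2 ± 4.02 CPM in the libraries labelled KO (edgeR adjusted p = 0.884, log2 fold change 0.02, SE 0.09). Counts per gene do not show which exons were lost, so this gene does not check the KO label, and each direction below rests on that label. The MGE marker Nkx2-1 was present at 647 ± 29.4 CPM in WT and 769 ± 118 CPM in KO. KO 1 stood apart from the other libraries. Xist, a transcript of the inactive X chromosome that was picked out after its values were seen, was at 1.92 CPM in KO 1 and at 721 to 1424 CPM in the other 5 libraries.

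Transcripts of the GABA genes were lower in KO more often than higher. Of the 26 genes, 24 had enough reads to be tested, and Slc6a13 and Gabrd did not. In the KO libraries 9 of the 24 were lower and 1 was higher at an adjusted p under 0.05, and 14 did not pass. Over all 18079 genes tested, 10.5% were lower and 9.72% were higher. The 26 genes were chosen with earlier results of these data known, so these shares describe them and do not test the set. The median log2 fold change was -0.19 over the 24 genes and -0.0024 over all genes tested. All 3 KO libraries lay below all 3 WT libraries for 12 of the 24 genes, against 19.6% of all genes, and above them for 2, against 20.3%. Without KO 1, 14 of the 24 were lower and 2 higher, where 20.9% of all genes tested were lower and 20.6% higher. Without WT 2, WT 3 or KO 3, 4 of the GABA genes were lower, where 3.9%, 3.91% and 4.31% of all genes were. Without KO 2, 5 were lower (4.17% of all genes), and without WT 1, 8 were (6.31%). In these 5 fits edgeR called 0 GABA genes higher, with 1 or 2 at an unadjusted p under 0.05, where 4.44% of all genes were higher without WT 1, 2.59% without WT 2, 2.49% without WT 3, 3.12% without KO 2 and 3.31% without KO 3. In bulk tissue, fewer cells of a type and less RNA per cell cannot be told apart.

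**Figure D1:**
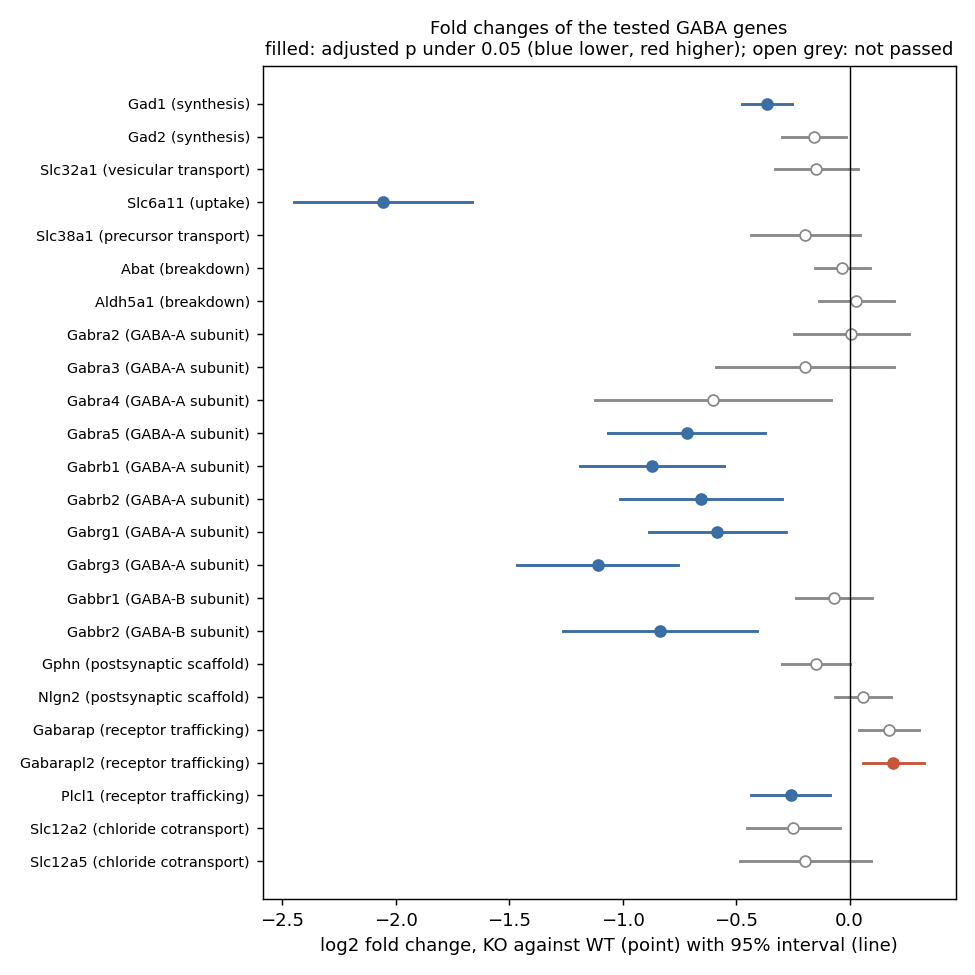
Log2 fold change (KO over WT) of each tested GABA gene, ordered by role, with the 95% interval as a line. Filled points passed the test at an adjusted p under 0.05 and open points did not; Slc6a11 lies farthest from 0, at -2.05, and Gabarapl2 is the gene above 0 that passed.

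Among the genes that passed, the GABA transporter Slc6a11 and the subunit Gabrg3 had the largest falls, and Gabrg1 came from the same subunit family as Gabrg3. Their promoters are shown because each of these genes was lower in KO and the 3 windows hold no exon of a coding transcript. Gabrg1 had the smallest fall of the subunits that passed. Whether the 3 genes change together was not tested. Each is the stretch of 250 bases before the start of the RefSeq transcript (GRCm38.p6), printed 5′ to 3′ on the gene's strand. Capitals mark a match on either strand to any of 3 motifs. The first is the box read by Sp family factors, GGGCGG. The second is the core promoter element TATAAA. The third is the core read by many homeodomain factors, TAATTA, of which overlapping matches are printed as a single run. The windows lie at chr6:114130991-114131240 on the plus strand for Slc6a11, at chr5:70842618-70842867 on the minus strand for Gabrg1 and at chr7:57387216-57387465 on the minus strand for Gabrg3.
Slc6a11: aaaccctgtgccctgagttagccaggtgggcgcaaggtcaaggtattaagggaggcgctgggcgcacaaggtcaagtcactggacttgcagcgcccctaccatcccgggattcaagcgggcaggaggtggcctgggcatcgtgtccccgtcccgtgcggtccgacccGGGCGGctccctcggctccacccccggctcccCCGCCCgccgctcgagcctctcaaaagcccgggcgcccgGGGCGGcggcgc
Gabrg1: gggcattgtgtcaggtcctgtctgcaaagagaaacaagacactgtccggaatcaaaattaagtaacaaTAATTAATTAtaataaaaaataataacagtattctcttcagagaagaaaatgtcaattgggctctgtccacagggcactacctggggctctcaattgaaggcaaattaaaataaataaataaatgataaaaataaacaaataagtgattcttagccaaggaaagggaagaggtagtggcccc
Gabrg3: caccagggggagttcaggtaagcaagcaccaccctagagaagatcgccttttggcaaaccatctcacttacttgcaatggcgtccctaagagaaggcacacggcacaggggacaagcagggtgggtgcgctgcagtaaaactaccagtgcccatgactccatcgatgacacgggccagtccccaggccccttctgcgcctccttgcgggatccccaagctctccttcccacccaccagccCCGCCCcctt

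The 3 windows differ in composition, with 71.2% G and C in Slc6a11, 60.4% in Gabrg3 and 35.6% in Gabrg1, against a median of 52.4% over all RefSeq promoter windows of this length. Of the GABA genes, 22 had a RefSeq window outside chromosome 18, with 29 windows in all. GGGCGG was found in 14 of the 29 and in 32.7% of 32851 windows of all genes, and TATAAA in 4 of the 29 and in 12.4%. TAATTA was found in 1 of the 29, that of Gabrg1, and in 4.84% of all windows. Such a match describes letters in the window and is not a binding site.

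Of the 2 genes of GABA synthesis, Gad1 passed the test and Gad2 did not. Gad1, which encodes the decarboxylase that makes most GABA in the developing brain, had 265, 264 and 263 CPM in WT 1 to 3 and 206, 206 and 204 CPM in KO 1 to 3. The 3 libraries of each group lay within a few CPM of each other and the groups did not overlap. Gad1 fell 1.29-fold, from 264 ± 0.861 to 205 ± 1.06 CPM (log2 fold change -0.36, SE 0.05, edgeR adjusted p = 0.00161). Gad2, the second decarboxylase, which supplies GABA at nerve terminals, had 403, 371 and 373 CPM in WT 1 to 3 and 342, 360 and 327 CPM in KO 1 to 3. The KO libraries again lay below the WT libraries, but the difference did not pass the test (383 ± 18.1 and 343 ± 16.6 CPM, log2 fold change -0.16, SE 0.06, edgeR adjusted p = 0.103). The ratio of Gad2 to Gad1 per kilobase of exon was 1.98, 1.83 and 1.84 in the WT libraries and 2.16, 2.27 and 2.08 in the KO libraries. The ratio was higher in each KO library than in any WT library, with an exact two-sided permutation p of 0.1, the smallest that 3 against 3 allows, and an adjusted p of 0.2 over 4 ratios.

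Packaging and breakdown genes did not pass the test. Slc32a1, the vesicular GABA transporter, had 121, 117 and 131 CPM in WT 1 to 3 and 126, 104 and 104 CPM in KO 1 to 3, so KO 1 lay within the WT range (log2 fold change -0.15, SE 0.08, edgeR adjusted p = 0.219). It shares 697 exon bases with the antisense gene Gm14205, at 0.575 and 0.518 CPM in WT and KO, and reads of the 2 cannot be told apart. Abat, the transaminase that begins GABA breakdown, had 189 ± 3.82 CPM in WT and 185 ± 8.13 CPM in KO, and the 95% interval of the fold ran from 0.898 to 1.06. Aldh5a1, the dehydrogenase of the next step, had 48 ± 3.31 and 49 ± 3.34 CPM, with an interval of 0.912 to 1.14. Changes larger than these limits lie outside both intervals. Aldh5a1 shares 796 exon bases with the antisense gene 4932702P03Rik, at 1.33 and 1.28 CPM in WT and KO, and others with 9330162012Rik. Reads in these bases cannot be told apart.

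Slc6a11, a plasma membrane GABA transporter best known from astrocytes, showed the largest difference of the 26 genes. It had 9.47, 14 and 11.6 CPM in WT 1 to 3 and 3.41, 2.47 and 2.54 CPM in KO 1 to 3. Every WT library was more than 2 times as high as any KO library. It fell 4.15-fold, from 11.7 ± 2.27 to 2.81 ± 0.523 CPM (log2 fold change -2.05, SE 0.18, edgeR adjusted p = 0.000156). Slc6a13, a related transporter found in meninges, had 9, 1 and 2 reads in WT 1 to 3 and 5, 5 and 3 reads in KO 1 to 3, at or near the limit of 3 reads that a count of 0 allows, and was not tested.

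Part of the astrocyte marker list was lower in KO together with Slc6a11. Of 6 genes listed for astrocytes, 5 could be tested and 3 of those were lower. Among all genes tested, 10.5% were lower and 9.72% higher. The marker lists here are short, and their counts were not tested against these shares. Aldh1l1 fell 4.83-fold, from 23.4 ± 1.44 to 4.82 ± 1.69 CPM (edgeR adjusted p = 0.000326), and Aldoc fell 3.26-fold, from 11.8 ± 0.943 to 3.57 ± 0.711 CPM (edgeR adjusted p = 0.000167). The third was Aqp4, named after its values were seen, at 1.13 ± 0.188 and 0.231 ± 0.178 CPM (edgeR adjusted p = 0.00621). Slc1a2, the most abundant of the list, had 59.1 ± 8.5 and 69.6 ± 6.47 CPM and did not pass (edgeR adjusted p = 0.134). The summed level of the list was 83.4 to 104 CPM in WT and 71.6 to 88.2 CPM in KO. No gene of the list was at 0 in all libraries, and Gfap, the one not tested, was at 0.0615 and 0.0591 CPM. Of 10 radial glia markers, 8 were higher in KO and 1, the glutamate transporter Slc1a3, was lower, and the sum of the 10 was 1944 to 2070 CPM in WT and 2777 to 3273 CPM in KO. Of 10 neuron markers, 2 were lower and none higher, with sums of 5922 to 6212 and 5391 to 5728 CPM, and of 10 markers of the lateral eminence 9 were lower, with sums of 622 to 801 and 417 to 537 CPM. Of 10 MGE markers 2 were higher and 4 lower, with sums of 3823 to 4072 and 3295 to 3775 CPM. Of 6 red cell genes 3 were higher, with sums of 327 to 391 and 858 to 1410 CPM. Of 6 pericyte markers 5 were lower (sums of 205 to 218 and 177 to 238 CPM), and of 5 microglia markers 2 were lower (28.8 to 30.6 and 21.3 to 27.4 CPM). Of 9 markers of cortical excitatory neurons 4 were higher (31.3 to 70.9 and 74.4 to 128 CPM), and of 5 markers of the caudal eminence 2 were higher and 1 lower (406 to 506 and 721 to 855 CPM). Oligodendrocyte precursor markers had 1 of 5 higher and 2 lower, endothelial markers 1 of 6 lower, meningeal markers 1 of 4 lower and choroid plexus markers 1 of 2 higher. The part of these cell types in the results on GABA genes was not tested.

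**Figure D2:**
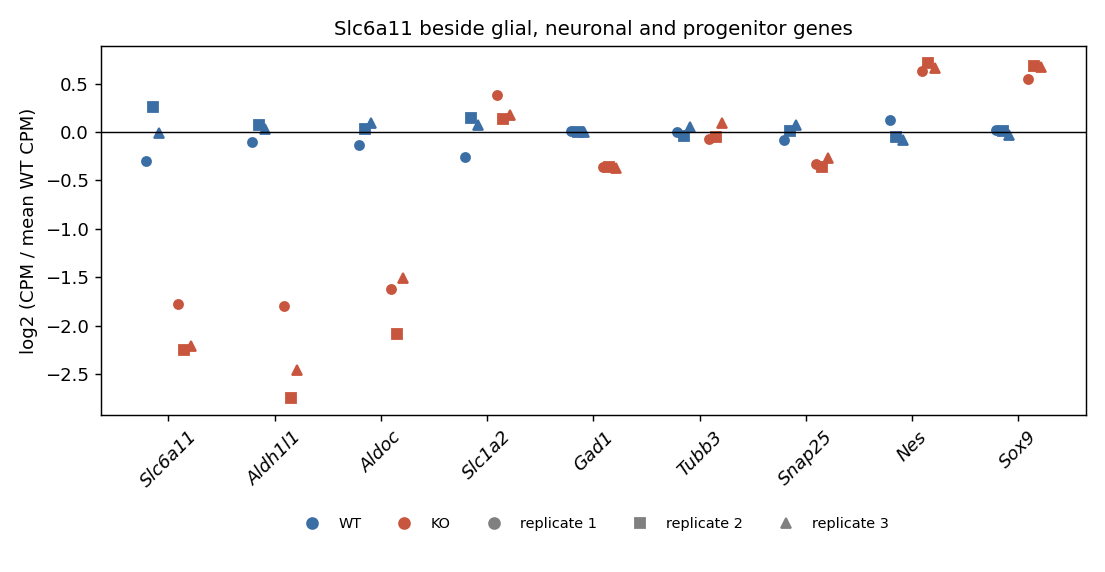
Log2 of CPM over the WT mean, per library, for Slc6a11, the astrocyte markers Aldh1l1, Aldoc and Slc1a2, the GABA gene Gad1, the neuron markers Tubb3 and Snap25 and the radial glia markers Nes and Sox9. Slc6a11, Aldh1l1 and Aldoc in the KO libraries lie far below the WT libraries, Gad1 lies a little below them, and Nes and Sox9 lie above them.

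The GABA-A subunits were the largest role group, with 8 of the 24 tested genes, and held the most falls. Of the 8, 5 were lower and none higher, where 10.5% of all genes tested were lower and 9.72% higher. Gabrg3 fell 2.16-fold, Gabrb1 1.83-fold, Gabra5 1.64-fold, Gabrb2 1.57-fold and Gabrg1 1.5-fold. Of these 5, only Gabrb1 and Gabrg3 were lower under all 12 alternatives. Gabra2, Gabra3 and Gabra4 did not pass. The alpha and beta subunits form the GABA site, and a gamma subunit usually completes the channel.

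Gabrg3 had 5.27, 7.44 and 6.75 CPM in WT 1 to 3 and 3.34, 2.61 and 3.01 CPM in KO 1 to 3 (6.49 ± 1.11 and 2.99 ± 0.367 CPM, log2 fold change -1.11, SE 0.16, edgeR adjusted p = 0.00221). Gabrg1 had 5.46, 6.72 and 7.09 CPM in WT 1 to 3 and 4.11, 4.75 and 4.02 CPM in KO 1 to 3 (6.43 ± 0.854 and 4.29 ± 0.397 CPM, log2 fold change -0.58, SE 0.13, edgeR adjusted p = 0.0181). For both gamma subunits each KO library lay below each WT library. Gabrd, a subunit of receptors outside the synapse, had 3, 5 and 2 reads in WT 1 to 3 and 2, 0 and 0 reads in KO 1 to 3, which is too few for a comparison.

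Of the beta subunits, Gabrb1 had 7.74, 10.3 and 9.8 CPM in WT 1 to 3 and 5.82, 4.64 and 4.73 CPM in KO 1 to 3 (9.29 ± 1.37 and 5.06 ± 0.659 CPM, log2 fold change -0.87, SE 0.14, edgeR adjusted p = 0.00424). Gabrb2 had 24.1, 28.3 and 27 CPM in WT 1 to 3 and 21.8, 14.7 and 13.9 CPM in KO 1 to 3 (26.4 ± 2.17 and 16.8 ± 4.34 CPM, log2 fold change -0.65, SE 0.16, edgeR adjusted p = 0.0229). The groups of both genes were apart, and for Gabrb2 KO 1 lay close to the lowest WT library.

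Of the alpha subunits, Gabra5 had 10.5, 14.9 and 12.5 CPM in WT 1 to 3 and 9.23, 7.03 and 6.81 CPM in KO 1 to 3 (12.7 ± 2.2 and 7.69 ± 1.34 CPM, log2 fold change -0.72, SE 0.15, edgeR adjusted p = 0.0142). It shares 148 exon bases with the antisense gene Gm9962, which was at 0.264 and 0.112 CPM in WT and KO. Gabra4 had 3.13 ± 0.563 CPM in WT and 2.09 ± 0.619 CPM in KO, with the groups apart, and did not pass (log2 fold change -0.60, SE 0.23, edgeR adjusted p = 0.0936). It shares 46 exon bases with Gabrb1, its neighbour on the other strand. Gabra2, an alpha subunit typical of the embryonic brain, had 24.4 ± 3.21 and 24.5 ± 2.76 CPM, and the 95% interval of its fold ran from 0.844 to 1.2.

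Gabra3, on the X chromosome, had 20.8, 31.6 and 30.4 CPM in WT 1 to 3 and 28.8, 22.3 and 21.1 CPM in KO 1 to 3. The groups overlapped (27.6 ± 5.95 and 24.1 ± 4.16 CPM, log2 fold change -0.19, SE 0.17, edgeR adjusted p = 0.448). KO 1, the library with little Xist, was the highest KO library. On other chromosomes KO 1 was also the highest KO library for Gabra5, Gabrb1, Gabrb2 and Gabrg3, but not for Gabra2, Gabra4 or Gabrg1. Nor was it the highest for Gabre and Gabrq, which are on the X chromosome. The part of the low Xist library in the Gabra3 value was not tested.

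Per kilobase of exon, mean levels among the 4 alpha subunits described here were 7.03 CPM per kilobase in WT and 6.13 in KO for Gabra3, 4.26 and 2.59 for Gabra5, 3.19 and 3.21 for Gabra2, and 0.515 and 0.343 for Gabra4. Gabra3 was the highest and Gabra4 the lowest in both groups, while the means of Gabra5 and Gabra2 stood in the other order in KO. The order was not tested.

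Many subunit genes sit in clusters in the mouse genome, and neighbours did not all pass the test. On chromosome 7, Gabrg3 and Gabra5 were both lower. On chromosome 5, Gabrg1 and Gabrb1 were lower, while Gabra2 and Gabra4, which lie between them, did not pass. The log2 fold change of Gabra4, -0.60 (SE 0.23), was close to that of Gabrg1, -0.58 (SE 0.13), while that of Gabra2 was 0.0083. On the X chromosome, Gabra3 did not pass, nor did its neighbours Gabre and Gabrq.

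**Figure D3:**
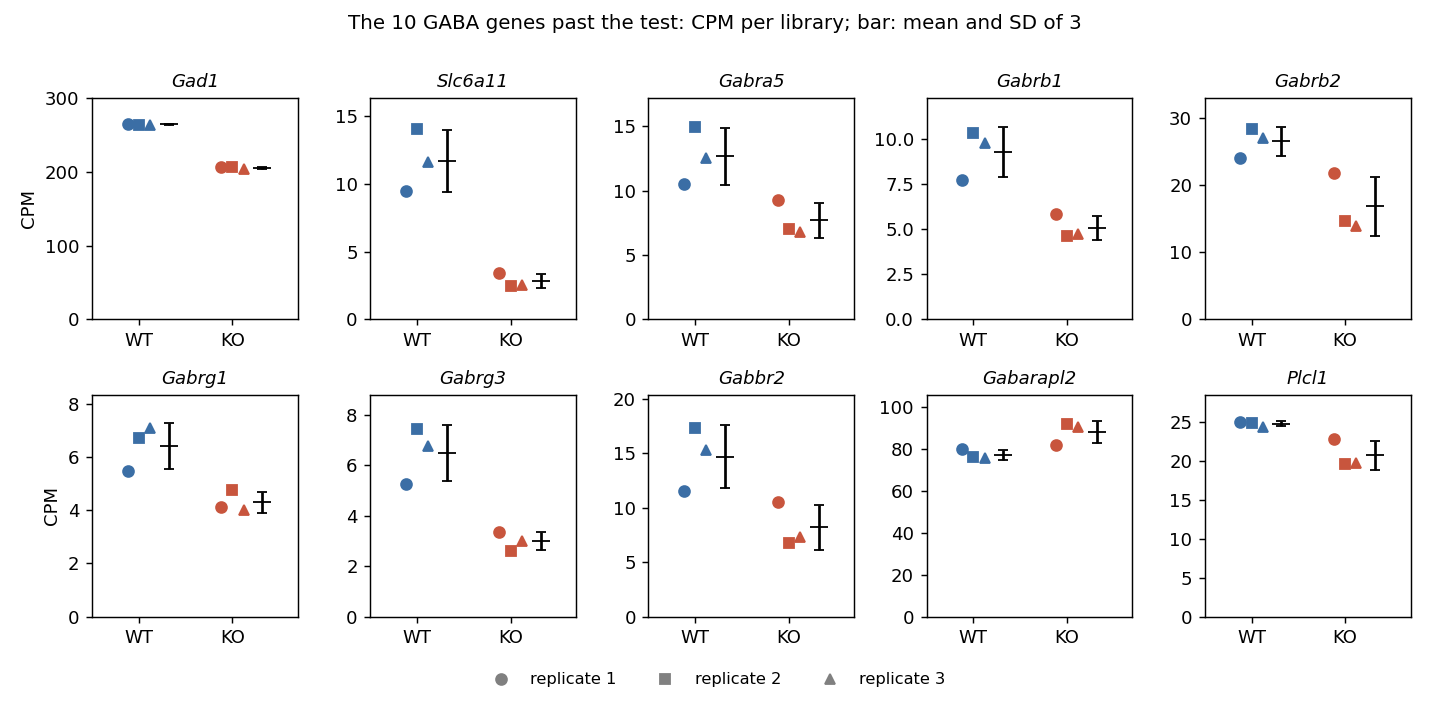
CPM in each library of the 10 GABA genes that passed the test, with the mean and SD of 3 libraries beside the points, on axes that start at 0. In 9 panels the KO libraries lie below the WT libraries, and in that of Gabarapl2 they lie above them.

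The GABA-B receptor is built of 2 different subunits. These differed in level, and Gabbr2 passed the test while Gabbr1 did not. Gabbr1, which binds GABA, had 325 ± 23.1 CPM in WT and 310 ± 23.7 CPM in KO, with overlapping groups and a 95% interval of the fold from 0.848 to 1.07. Gabbr2, which couples to G proteins, had 11.5, 17.3 and 15.3 CPM in WT 1 to 3 and 10.5, 6.75 and 7.3 CPM in KO 1 to 3. The groups were apart, with KO 1 near the lowest WT library. Gabbr2 fell 1.78-fold, from 14.7 ± 2.92 to 8.2 ± 2.05 CPM (log2 fold change -0.84, SE 0.19, edgeR adjusted p = 0.0185). Per kilobase of exon the ratio of Gabbr2 to Gabbr1 was 0.0446, 0.0582 and 0.0536 in the WT libraries and 0.0364, 0.026 and 0.0291 in the KO libraries. Every KO value was below every WT value (exact two-sided permutation p = 0.1, adjusted p = 0.2 over 4 ratios).

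At the postsynaptic side, the scaffold gene Gphn, whose protein gephyrin anchors GABA-A receptors, had 42.4 ± 2.41 CPM in WT and 38.2 ± 1.72 CPM in KO and did not pass (edgeR adjusted p = 0.135). Nlgn2, an adhesion protein of inhibitory synapses, had 315 ± 8.61 and 329 ± 9.18 CPM and did not pass (edgeR adjusted p = 0.47). Of the genes that carry receptors to the surface, Gabarapl2 had 80, 76.3 and 75.6 CPM in WT 1 to 3 and 82.2, 92 and 90.9 CPM in KO 1 to 3. It rose 1.14-fold, with KO 1 just above the highest WT library (77.3 ± 2.38 and 88.4 ± 5.36 CPM, log2 fold change 0.19, SE 0.06, edgeR adjusted p = 0.0499). Its relative Gabarap, which binds the gamma subunit, had 185, 176 and 183 CPM in WT 1 to 3 and 192, 207 and 214 CPM in KO 1 to 3. These groups were also apart, and the difference did not pass (log2 fold change 0.17, SE 0.06, edgeR adjusted p = 0.0669). Plcl1, a binding partner of Gabarap, fell 1.2-fold, from 24.8 ± 0.338 to 20.7 ± 1.83 CPM (log2 fold change -0.26, SE 0.08, edgeR adjusted p = 0.0441).

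Neither chloride cotransporter passed the test. Slc12a2, which brings chloride into the cell, had 87.1, 77 and 74 CPM in WT 1 to 3 and 71.8, 70.7 and 58.1 CPM in KO 1 to 3. The KO libraries lay below the WT libraries (79.4 ± 6.85 and 66.9 ± 7.62 CPM, log2 fold change -0.25, SE 0.09, edgeR adjusted p = 0.0811). Slc12a5, the neuronal chloride exporter, had 72.8, 104 and 93.8 CPM in WT 1 to 3 and 87.5, 71.9 and 77 CPM in KO 1 to 3. These groups overlapped (90.3 ± 16.1 and 78.8 ± 7.97 CPM, log2 fold change -0.19, SE 0.13, edgeR adjusted p = 0.298), and the 95% interval of the fold ran from 0.716 to 1.07. The ratio of Slc12a5 to Slc12a2 per kilobase of exon ran from 1.23 to 1.99 in WT and from 1.49 to 1.94 in KO (exact two-sided permutation p = 0.9, adjusted p = 0.9 over 4 ratios). Slc38a1, which brings in glutamine, a precursor of GABA, had 233, 244 and 233 CPM in WT 1 to 3 and 246, 175 and 200 CPM in KO 1 to 3. KO 1 was the highest of all 6 libraries and KO 2 and KO 3 the lowest, and the difference did not pass (log2 fold change -0.19, SE 0.11, edgeR adjusted p = 0.216).

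A wider list of 70 GABA genes outside the 26 gave 68 that were found and 61 that could be tested. Of these 61, 14 were lower, 2 were higher and 45 did not pass, with a median log2 fold change of -0.15, where 10.5% of all genes were lower and 9.72% higher. Without KO 1, 30 were lower and 4 higher, beside 20.9% and 20.6% of all genes. Without WT 2, WT 3, KO 2 or KO 3, 8 or 9 were lower and 1 higher, where 3.9 to 4.31% of all genes were lower and 2.49 to 3.31% higher. Some carriers of glutamine or glutamate were among the genes that were lower, and more abundant ones did not pass. Slc38a2 had 398 ± 14.2 CPM in WT and 360 ± 10 CPM in KO (log2 fold change -0.14, edgeR adjusted p = 0.101). Slc38a1, described above, did not pass either. Slc38a3 fell 1.68-fold (23.6 ± 0.562 to 14 ± 0.616 CPM, edgeR adjusted p = 0.00029), Slc38a5 fell 2.22-fold (15 ± 0.613 to 6.75 ± 0.928 CPM, edgeR adjusted p = 0.000315) and Slc1a1 fell 1.69-fold (11.1 ± 1.79 to 6.56 ± 1.36 CPM, edgeR adjusted p = 0.0142). Slc1a1 shares 2631 of its 8257 exon bases with 4430402I18Rik, and reads in these bases cannot be told apart.

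Genes of synapse assembly were also among those that were lower. Of 14 scaffold and auxiliary genes tested in the wider list, 5 were lower, none was higher and 9 did not pass. Over all genes tested, 10.5% were lower. Slitrk3, a postsynaptic adhesion protein, fell 1.95-fold (edgeR adjusted p = 0.00461), the presynaptic neurexin Nrxn3 fell 1.35-fold (edgeR adjusted p = 0.0039), and the scaffold Magi2 fell 1.21-fold (edgeR adjusted p = 0.02). Others were Trak2, a motor adaptor (1.23-fold, edgeR adjusted p = 0.0221), Kctd12b, a GABA-B auxiliary subunit (1.85-fold, edgeR adjusted p = 0.00533), and Prrt2, a presynaptic protein (1.52-fold, edgeR adjusted p = 0.0377). Prrt2 shares 2918 of its 3159 exon bases with Gm42742, and reads in these bases cannot be told apart. The 2 genes that rose both act on chloride. Stk39, a kinase that acts on the chloride cotransporters, rose 1.57-fold, from 29 ± 1.72 to 45.6 ± 1.24 CPM (edgeR adjusted p = 0.000352). The chloride channel Clcn2 rose 1.2-fold, from 33.9 ± 2.56 to 40.6 ± 2.4 CPM (edgeR adjusted p = 0.0387). Slc38a3, Slc38a5, Slitrk3, Nrxn3, Kctd12b and Stk39 passed under all 12 alternatives. Clcn2, Magi2 and Trak2 no longer passed when any library but KO 1 was left out, nor did Slc1a1 without WT 2, WT 3, KO 2 or KO 3, nor Prrt2 without WT 1, WT 2, KO 2 or KO 3.

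The calls did not rest on the libraries evenly. Gad1, Slc6a11, Gabrb1 and Gabrg3 were lower under all 12 alternatives, which include leaving out each library. Gabra5 and Gabrb2 no longer passed without WT 2, WT 3, KO 2 or KO 3, and Gabrg1 no longer passed without WT 2, WT 3 or KO 3. Gabbr2 was lost without any of WT 2, WT 3, KO 2 and KO 3. Plcl1 and Gabarapl2 passed without KO 1 and were lost when any other library was left out. Without KO 1, Gad2, Slc32a1, Gabra4, Gphn and Slc38a1 were lower too, and Gabarap was higher.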

How the data were processed

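The submitters' processing notes list the build GRCm38 and the tools STAR 2.5.2b, Trimmomatic 0.36, Subread 1.5.2, featureCounts and DESeq2. Strandedness and annotation release are not given in the sources used, so antisense pairs cannot be told apart. Raw counts per Ensembl gene, as deposited by the authors, entered every test. Symbols, positions and exonic lengths came from GENCODE M21 (49056 of 49315 gene IDs found). The filterByExpr function (minimum count 10, minimum total 15) kept 18079 genes. WT and KO were compared in R 4.3.3 by edgeR 4.0.16 (robust quasi-likelihood test, TMM scaling), with Benjamini-Hochberg adjustment at 0.05 over these genes. The standard error is the log2 fold change over the square root of F, and the biological coefficient of variation was 9.52%. The procedure was tested on simulated data. Alternatives were DESeq2 size factors and test (1.42.0), limma voom (3.58.1), no filter or at least 1 CPM in 3 libraries, the replicate block, and each library left out. All 26 genes are named, with wider-list genes that passed (some are not reported here). Marker genes could be named if among the 2 most abundant or the 2 with the smallest p of their list. Most marker lists are given as counts. Genes outside this rule (Xist, Aqp4, Slc1a3, Gfap, Slc38a2, genes that share exons and cluster neighbours) were chosen after their values were seen. The genes and lists were chosen with earlier results of these data known. Insyn2a and Nlgn4l were not matched.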

Additional observations from a re-analysis of the deposited data

How the results depend on the processing

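Over 24 GABA genes and 12 alternatives, 243 of 288 values kept direction and side of the threshold, 30 no longer passed, 9 newly passed and 6 changed sign. For 17 genes of the wider list, 168 of 204 values kept both and 36 no longer passed. Same-numbered WT and KO libraries did not deviate together (correlations of -0.0756, -0.123 and 0.0264), so the numbers are not taken to pair the pools. With the replicate number as a block, 862 genes were higher and 1219 lower, 7 GABA genes were lower and none higher, and 11 genes of the wider list were lower and 1 higher. The block lost Gabbr2, Plcl1 and Gabarapl2 and, of the wider-list genes named, Slc1a1, Prrt2 and Clcn2. Leaving out each library gave 464 to 3752 genes higher and 727 to 3804 lower, with 0 to 2 GABA genes higher and 4 to 14 lower, and 1 to 4 of the wider list higher and 8 to 30 lower. The highest counts came without KO 1. With no filter 2 GABA genes were higher, and limma voom gave 0, while edgeR and DESeq2 each gave 1. At an unadjusted p under 0.05 the number was 2 in each of these and in the block. Leaving out each library moved the log2 fold change of Abat between -0.059 and 0.0076, of Aldh5a1 between -0.020 and 0.085 and of Gabra2 between -0.091 and 0.10. The log2 ratio difference of Slc12a5 to Slc12a2 ran from -0.15 to 0.20 and that of Gabarapl2 to Gabarap from -0.0029 to 0.035. The cause was not tested. Slc6a13 and Gabrd had 0 to 9 reads per library, too few to compare.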
